A study of Mus musculus with 23 samples.

Results

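The genes described here are the transcription factor gene Myc and 9 genes of the nucleolus, the compartment in which ribosomes are made: Ncl, Npm1, Fbl, Nop56, Nop58, Dkc1, Polr1a, Polr1b and Nolc1. They were taken by symbol from a table of 14651 genes measured in mouse brown adipose tissue (BAT), and all 10 were present. Levels are normalized counts, that is, the reads of a gene divided by the size factor of its library. They are not adjusted for transcript length, so a ratio between genes is a ratio of counts.

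BAT came from 23 male mice of 8 to 12 weeks, labelled C57BL/6. Per the methods, the floxed line was made in embryonic stem cells of mixed 129/BL6 origin and then crossed to C57BL/6J until nearly, not fully, homogeneous. Control mice were Mcu[fl/fl], with loxP sites around exon 2 of Mcu, the gene for the pore of the mitochondrial calcium uniporter. Knockout mice (BAT-Mcu-KO) carried the same floxed alleles together with 1 copy of the Ucp1-Cre transgene. Its Cre recombinase is made under the Ucp1 promoter, so that Mcu is cut in cells that express Ucp1 and left in the other cells of the tissue. There were 6 control mice at room temperature (RT), 5 control mice at 4°C, 6 knockout mice at RT and 6 knockout mice at 4°C. Cold exposure lasted 6 h, with 1 mouse to a cage and no food. The methods do not say how the sequenced RT mice were caged and fed during those hours. If they were housed together with food, then cold, isolation and the lack of food cannot be told apart. Nothing stated that the mice of a group came from separate litters or days, and the p-values measure the spread between these mice.

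Libraries held between 7129271 and 21006347 reads on the genes of the table. Mcu, the targeted gene, was measured at 109 ± 22.5 normalized counts in control mice at RT (SD, n = 6) and 35.1 ± 10.03 in knockout mice at RT (SD, n = 6). It stood at 107 ± 26.9 in control mice at 4°C (SD, n = 5) and 33.9 ± 6.60 in knockout mice at 4°C (SD, n = 6). Every knockout mouse lay below every control mouse at its temperature, with log2 fold changes of -1.66 ± 0.22 at RT and -1.61 ± 0.23 at 4°C (limma, adjusted p = 0.001 and 0.00367). The 8 brown adipocyte markers were all detected, and their summed level was 176600 to 248300 in mice at RT, while mice at 4°C had 281000 to 345900. The sum hides movement both ways, with 4 markers called higher and 3 lower by cold in control mice and 3 higher and 1 lower in knockout mice. The summed level of 5 skeletal muscle markers, by contrast, ran from 0.0 to 40370 normalized counts between mice, with wide ranges in all 4 groups.

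MYC is a transcription factor that binds DNA with its partner MAX, preferably at the E-box letters CACGTG, and is known for raising the genes of ribosome production and of growth. Ribosome production starts in the nucleolus, where RNA polymerase I copies the ribosomal DNA into a long precursor. Small nucleolar RNAs in protein particles (snoRNPs) guide the chemical modification of that precursor, and many assembly factors fold, trim and export the small and the large subunit.

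The promoters of these genes were searched for the E-box because MYC is one of the genes described. The RefSeq windows, from 250 bases before to 50 bases after the start of a gene on GRCm38.p6, covered 9982 of the measured genes, and 11.58% of them held CACGTG, which reads the same on both strands. Windows were at hand for 7 of the genes described here (not for Myc, Npm1 and Fbl), and 0 of the 7 held it. Among the 110 genes with a window in 6 wider lists of ribosome production genes, described further on, 23 held it, a share of 20.91%. In the list of small subunit factors 12 of 40 held it, in that of large subunit factors 7 of 39, and in that of snoRNP genes 0 of 10. Of the MYC target genes outside the nucleolus, also described further on, 6 of 10 held it, and of the MYC network genes 5 of 13. A looser form of the letters, CANNTG, was in 67.79% of all windows, and in 3 of the 7. The 250 bases before the start are shown for Polr1a and Nop58, the pair of members with the largest rises in the cold. Their windows held no E-box, and sequence beyond the windows was not searched. Also shown are Nop2, a large subunit factor gene, and Rrn3, a polymerase I factor gene. Both are from the wider lists, and their windows held the E-box. CACGTG is in capitals. A match is only a match of letters, and none of these data measure the binding of MYC.
Polr1a, chr6:71908803-71909052, plus strand: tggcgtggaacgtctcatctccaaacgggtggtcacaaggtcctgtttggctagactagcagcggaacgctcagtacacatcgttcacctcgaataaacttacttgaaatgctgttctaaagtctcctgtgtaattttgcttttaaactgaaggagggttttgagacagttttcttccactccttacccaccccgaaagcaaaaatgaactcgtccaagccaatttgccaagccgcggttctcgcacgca
Nop58, chr1:59684756-59685005, plus strand: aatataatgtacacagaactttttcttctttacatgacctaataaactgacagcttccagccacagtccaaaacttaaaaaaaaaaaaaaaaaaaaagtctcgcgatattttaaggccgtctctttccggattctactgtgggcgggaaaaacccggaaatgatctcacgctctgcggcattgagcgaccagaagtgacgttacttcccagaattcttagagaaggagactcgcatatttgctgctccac
Nop2, chr6:125131633-125131882, plus strand: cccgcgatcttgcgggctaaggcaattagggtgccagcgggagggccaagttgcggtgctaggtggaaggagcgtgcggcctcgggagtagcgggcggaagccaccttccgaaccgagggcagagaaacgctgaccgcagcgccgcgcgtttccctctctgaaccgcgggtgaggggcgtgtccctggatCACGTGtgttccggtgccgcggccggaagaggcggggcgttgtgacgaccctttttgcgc
Rrn3, chr16:13780449-13780698, plus strand: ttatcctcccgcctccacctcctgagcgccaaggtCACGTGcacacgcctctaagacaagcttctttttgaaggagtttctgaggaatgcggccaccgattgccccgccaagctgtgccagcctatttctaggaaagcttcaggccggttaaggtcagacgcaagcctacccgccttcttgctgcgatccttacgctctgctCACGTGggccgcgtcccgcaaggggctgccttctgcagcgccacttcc
In Nop2 the E-box began 60 bases before the start. Rrn3 held it at 215 and at 48 bases before the start.

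Cold changed most of these genes, and mostly upward. In control mice 6 of the 10 were called changed between RT and 4°C by limma (adjusted p under 0.05 over all genes), 5 of them higher at 4°C and 1 lower. Of all 14651 genes 46.0% were called in that comparison, 22.3% higher and 23.7% lower. In knockout mice 8 of the 10 were called, 6 higher and 2 lower, where 43.3% of all genes were called, 21.4% higher and 21.9% lower. The median log2 fold change of the 10 genes was 0.45 in control mice and 0.54 in knockout mice, beside -0.02 and -0.02 for all genes. For 6 of the 10 the mice at 4°C did not overlap with the mice at RT in control mice, and likewise for 6 in knockout mice, where 25.2% and 24.2% of all genes showed such a gap. With each library scaled to its 75th percentile, the median of all genes in control mice moved by -0.11, and the share of calls that were higher at 4°C was 38.2% instead of 48.5%. The members called in control mice were then 7, with 5 higher and 2 lower. Endothelial markers moved with temperature as well. Their summed level (4 of 4 listed markers measured, none at 0 in all mice) was 2679 to 3818 in control mice at RT against 4510 to 7201 at 4°C, and 2784 to 3888 against 4106 to 6020 in knockout mice, with 2 markers called higher and 1 lower in each genotype. Their part in the changes of the members was not tested.

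**Figure D1:**
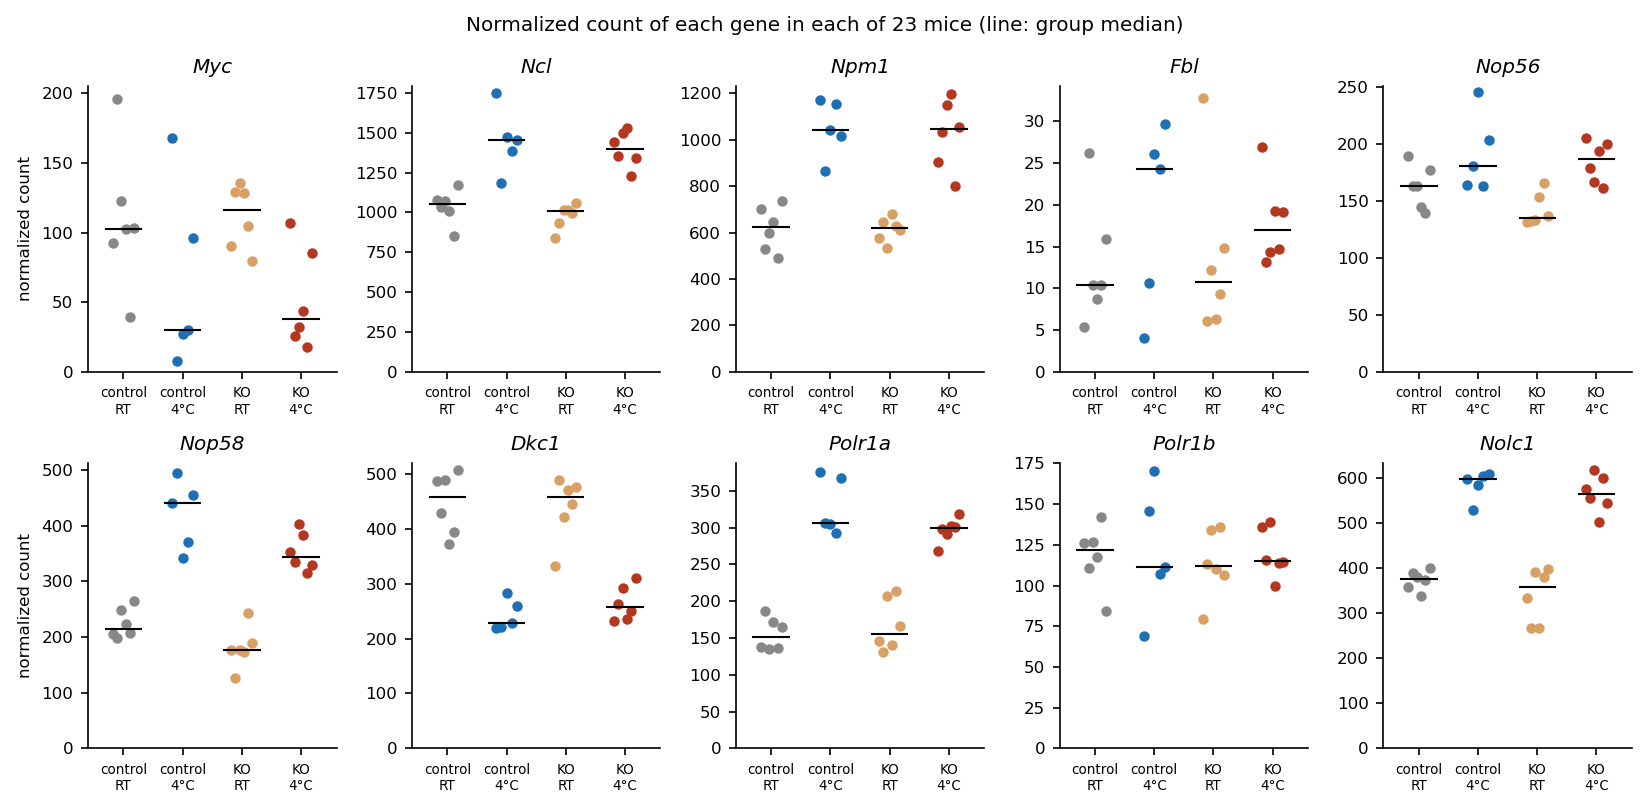
Normalized count (vertical axis, linear, from 0) of the 10 genes in each of 23 mice, 1 point per mouse, by genotype and temperature, with a line at the group median. In Ncl, Npm1, Nop58, Polr1a and Nolc1 all mice at 4°C lie above all mice at RT of their genotype, and in Dkc1 all lie below, while the points of Myc at 4°C spread from 7.59 to 168.

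Myc lies on chromosome 15 from 61985391 to 61990374 of GRCm38, on the plus strand. In control mice at RT its normalized count ran from 39.3 to 196, with a median of 103. In the 5 control mice at 4°C it was 168, 7.59, 27.4, 30.1 and 96.2. At RT the knockout mice had values from 79.9 to 135, with a median of 117, and at 4°C from 17.8 to 107, with a median of 37.9. So 3 of the 5 control mice and 4 of the 6 knockout mice at 4°C lay below every mouse at RT of their genotype, and the others lay among them. The log2 fold change was -1.26 ± 0.54 in control mice, which did not pass the test (limma, adjusted p = 0.0572), and -1.34 ± 0.51 in knockout mice, which did (adjusted p = 0.0366). The value in control mice rests on few mice: without the first control mouse at 4°C, the library of the fewest reads, the change in control mice was -1.77 (adjusted p = 0.00587), and without the second it was -0.69. On recovered reads it was -0.79 by edgeR (adjusted p = 0.205) and -0.74 by DESeq2 (adjusted p = 0.28). In knockout mice the call was lost in 11 of the 33 alternative fits, among them edgeR (-1.08, adjusted p = 0.0631), DESeq2 (-1.10, adjusted p = 0.082) and the fit without the fifth mouse at 4°C (-1.10, adjusted p = 0.0972). The fold there ran from -1.60 to -1.08 over the alternatives. These values come from whole tissue, in which fewer cells of a type and less RNA per cell cannot be told apart.

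Myc varied more between mice than the other 9 genes in 3 of the 4 groups, the exception being knockout mice at RT, where Fbl had the widest log2 spread (0.843). The standard deviation of its log2 level was 0.745 in control mice at RT, 1.68 in control mice at 4°C, 0.308 in knockout mice at RT and 0.983 in knockout mice at 4°C. Over the 9531 genes that averaged 50 normalized counts or more, the median of that standard deviation was between 0.202 and 0.237 in each group. At 4°C 99.3% of these genes varied less than Myc among control mice and 98.9% among knockout mice. The 4 highest Myc levels at 4°C were in mice that also had summed macrophage marker levels of 908, 1069, 917 and 1164 normalized counts (6 of 6 listed markers measured). In the other 7 mice at 4°C, with Myc between 7.59 and 43.9, that sum ran from 601 to 953, so that the ranges overlap. Preadipocyte and fibroblast markers (4 of 4 measured) had sums of 3874, 3724, 3094 and 3392 in the first 4 mice and of 2546 to 3275 in the other 7, ranges that overlap. Of the 6 macrophage markers none was called changed by cold in control mice and 3 were called higher in knockout mice, and the summed level ran from 605 to 897 in control mice at RT, 601 to 917 in control mice at 4°C, 489 to 864 in knockout mice at RT and 784 to 1164 in knockout mice at 4°C. The preadipocyte and fibroblast sum ran from 2185 to 2977 in control mice at RT, 2589 to 3874 in control mice at 4°C, 1880 to 3194 in knockout mice at RT and 2546 to 3724 in knockout mice at 4°C, with 0 markers called in control mice and 1 called higher in knockout mice. None of these markers was at 0 in all mice. The part of either cell type in the spread of Myc was not tested.

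**Figure D2:**
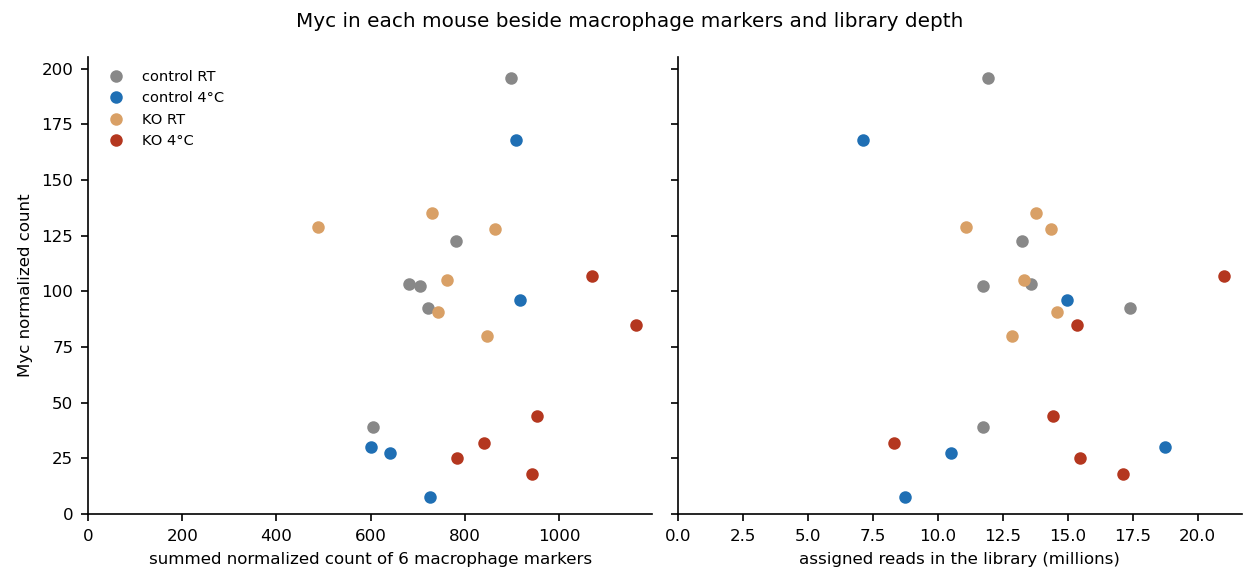
Normalized count of Myc (vertical axis) in each mouse against the summed normalized count of 6 macrophage markers (left) and against the number of reads in its library (right), both on linear axes from 0, coloured by group. Among the mice at 4°C the 4 with Myc above 80 have marker sums of 908 or more. Knockout mice at 4°C with Myc of 43.9 and 17.8 have sums of 953 and 942. The library of the fewest reads, a control mouse at 4°C with 7129271, has the highest Myc of its group. So does the library of the most reads, a knockout mouse at 4°C with 21006347.

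The catalytic core of RNA polymerase I is formed by its largest subunit, from Polr1a, and its second largest, from Polr1b. Polr1a (chromosome 6, 71909053 to 71984935, plus strand) ran from 135 to 186 in control mice at RT, with a median of 151. The 5 control mice at 4°C had 376, 307, 305, 292 and 367. Knockout mice had 130 to 214 (median 156) at RT against 269 to 318 (median 299) at 4°C. Polr1a rose in both genotypes with no overlap between temperatures, by a log2 fold change of 1.08 ± 0.13 in control mice (adjusted p = 1.62e-07), a fold of 2.12, and of 0.85 ± 0.12 in knockout mice (adjusted p = 3.49e-06). Polr1b (chromosome 2, 129100995 to 129126594, plus strand) lay on both sides of its RT range: 68.8, 146, 170, 107 and 111 in control mice at 4°C against 84.4 to 142 at RT. The fitted change on the log2 scale was -0.01 in control mice, with a 95% interval from -0.39 to 0.37, and 0.09 in knockout mice, from -0.27 to 0.45 (adjusted p = 0.964 and 0.706). The sign of the first turned in several alternative fits. The lowest value, 68.8, rests on 34 reads. The ratio of Polr1a to Polr1b within a mouse, which does not depend on how libraries are scaled, was 1.37 ± 0.40 in control mice at RT (SD, n = 6) and 3.08 ± 1.46 at 4°C (SD, n = 5), and 1.49 ± 0.245 and 2.52 ± 0.41 in knockout mice (SD, n = 6 each). These ratios were looked at after the levels were known and were not tested. Counting took no account of strand, and 185 exon bases of Polr1a also belong to the antisense gene Gm26628.

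Nucleolin (Ncl) and nucleophosmin (Npm1) are abundant nucleolar proteins, the first a binder of ribosomal RNA and its genes, the second a chaperone of the outer, granular zone where subunits are finished. Ncl (chromosome 1, 86344719 to 86359400, minus strand) was measured at 1748, 1187, 1474, 1385 and 1452 normalized counts in control mice at 4°C, against 855 to 1173 at RT. The knockout range was 840 to 1060 at RT against 1231 to 1528 at 4°C. Each mouse at 4°C was above each mouse at RT of its genotype, and Ncl rose by 0.48 ± 0.09 in control mice and 0.52 ± 0.09 in knockout mice on the log2 scale (adjusted p = 0.000154 and 3.79e-05). Npm1 (chromosome 11, 33152287 to 33163206, minus strand) showed the larger fitted rise of the pair. It ran from 490 to 734 in control mice at RT and was 1171, 863, 1042, 1153 and 1014 at 4°C, a log2 fold change of 0.77 ± 0.11 (adjusted p = 4.72e-06). Knockout mice had 534 to 679 at RT against 801 to 1196 at 4°C, a change of 0.73 ± 0.11 (adjusted p = 5.62e-06). The ratio of Ncl to Npm1 accordingly had a median of 1.67 at RT against 1.41 at 4°C in control mice, and of 1.54 against 1.31 in knockout mice. Of the 25-base stretches of the main Npm1 transcript, 47.55% also occur in transcripts of other genes, Gm9118 holding the largest part of them (31.88%), and a 25-base read that falls there matches more than 1 place unless its mate sets it.

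Box C/D snoRNPs, which methylate ribosomal RNA, contain the methyltransferase fibrillarin (Fbl) and a pair of related scaffold proteins from Nop56 and Nop58. Their fitted changes in the cold were of unequal size. Nop58 (chromosome 1, 59684971 to 59719044, plus strand) ran from 199 to 264 in control mice at RT, and was 441, 495, 342, 370 and 455 at 4°C. Knockout mice had 127 to 243 (median 176) at RT against 315 to 403 (median 344) at 4°C. No mouse at 4°C overlapped with RT, and Nop58 rose by 0.90 ± 0.13 in control mice and 0.98 ± 0.12 in knockout mice (adjusted p = 3.49e-06 and 4.87e-07).
Nop56 (chromosome 2, 130274430 to 130279313, plus strand) stood at 164, 181, 245, 163 and 204 in control mice at 4°C against 140 to 189 at RT, and from 131 to 165 at RT to between 161 and 205 at 4°C in knockout mice. Control mice overlapped between temperatures, with a log2 fold change of 0.22 ± 0.12 that did not pass the test (adjusted p = 0.129), while in knockout mice 5 of 6 mice at 4°C were above all at RT and the rise of 0.37 ± 0.11 passed it (adjusted p = 0.00951). That difference between genotypes was itself not called, with a difference of the log2 fold changes of 0.15 and a 95% interval from -0.19 to 0.49. Nop58 over Nop56 within a mouse was 1.39 ± 0.19 and 2.27 ± 0.54 in control mice at RT and 4°C, and 1.27 ± 0.19 and 1.93 ± 0.28 in knockout mice (SD, n = 6, 5, 6 and 6), a description made after the levels were known. Nop56 shares 38.42% of its 25-base stretches with transcripts of other genes, Nop58 none. Only uniquely mapped reads were counted, so the ratio of Nop58 to Nop56 cannot be read as a ratio of RNA levels.

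Fbl (chromosome 7, 28169710 to 28179269, plus strand) was at the lower limit of what these libraries show, with between 2 and 41 reads a mouse. Its normalized counts ran from 5.32 to 26.2 in control mice at RT, were 4.05, 10.6, 26.1, 24.2 and 29.7 at 4°C, and ran from 6.03 to 32.8 and from 13.1 to 26.9 in knockout mice. The groups overlapped in both genotypes. Its log2 fold changes of 0.41 and 0.57 had 95% intervals from -0.51 to 1.34 and from -0.32 to 1.45 (limma, adjusted p = 0.476 and 0.307). Neither a rise nor a fall of this gene was detectable from so few reads. In the annotation 82.35% of the 25-base stretches of its main transcript recur in other genes, 80.14% in a transcript of Tulp4. Since uniquely mapped reads were counted, the level listed for Fbl cannot be read as the level of its RNA. The part of these shared stretches in its low count was not tested.

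Dyskerin, from Dkc1, is the pseudouridine synthase of the H/ACA snoRNPs and a part of telomerase. Dkc1 (chromosome X, 75095854 to 75109777, plus strand) was the member that fell in both genotypes with no overlap. It ran from 372 to 506 in control mice at RT and was 219, 222, 284, 229 and 260 at 4°C. Knockout mice had 331 to 490 at RT and 233 to 310 at 4°C. The log2 fold changes were -0.88 ± 0.11 (adjusted p = 8.01e-07) and -0.73 ± 0.11 (adjusted p = 6.1e-06), or folds of 0.545 and 0.603. Nop58 over Dkc1 went from 0.506 ± 0.06 at RT to 1.77 ± 0.39 at 4°C in control mice (SD, n = 6 and 5), and from 0.42 ± 0.11 to 1.35 ± 0.20 in knockout mice (SD, n = 6 each), again as an untested description. Dkc1 overlaps by 45 exon bases with Mpp1 on the other strand. Nolc1 encodes a protein that binds snoRNPs of both classes and shuttles between nucleolus and cytoplasm. Nolc1 (chromosome 19, 46075863 to 46085530, plus strand) was 599, 530, 584, 604 and 609 in control mice at 4°C against 338 to 400 at RT, and in knockout mice 503 to 617 against 267 to 397. It rose by 0.65 ± 0.10 and 0.75 ± 0.10 on the log2 scale, with no overlap (adjusted p = 1.11e-05 and 6.92e-07).

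Several of these genes carry snoRNA genes in their bodies, 5 in Nop56, 4 in Nop58, 3 in Ncl and 1 in Dkc1. Snord57 and Snord110 lie in Nop56, Snord11 and Snord70 in Nop58, and Snord82 and Snora75 in Ncl. Reads of a snoRNA that lies on an annotated exon of its host can be counted for either gene or for neither. In the annotation 4 of the 5 in Nop56, 2 of the 3 in Ncl and 1 of the 4 in Nop58 overlap with an exon of some transcript of the host.

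**Figure D3:**
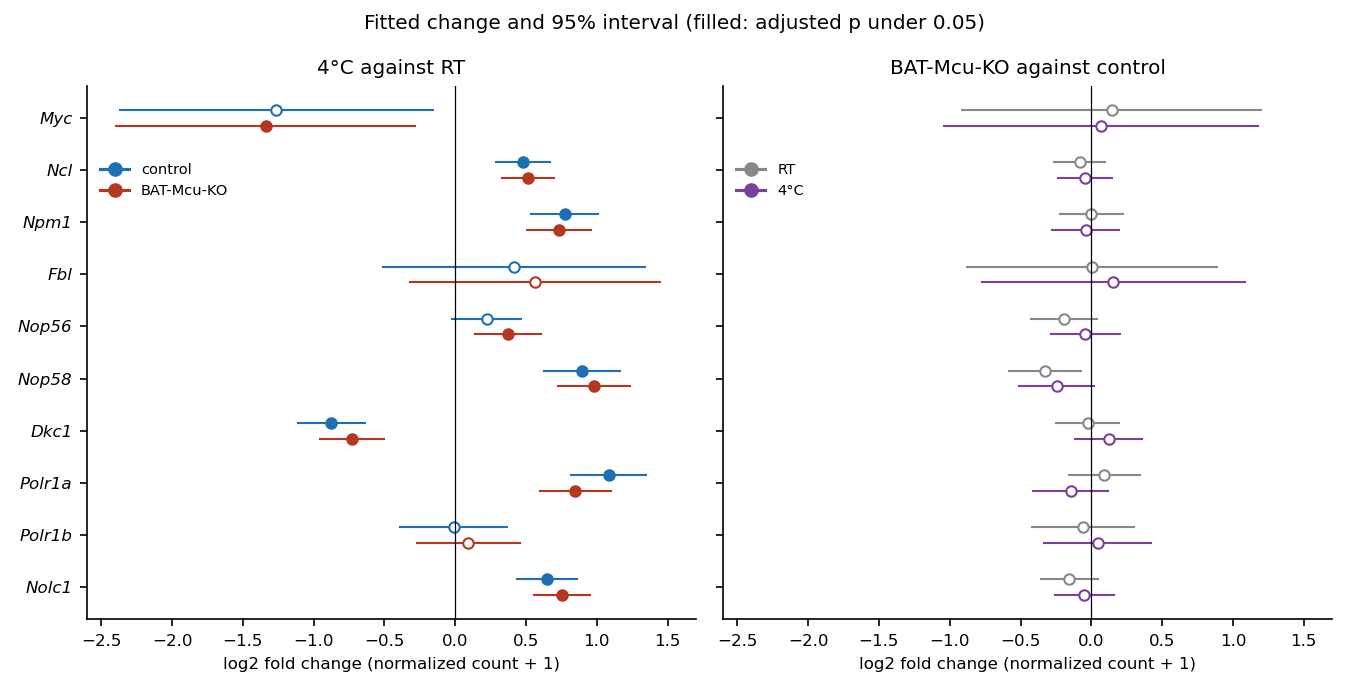
Log2 fold change of each gene (horizontal axis, on the scale of the normalized count plus 1) with its 95% interval, for 4°C against RT in each genotype (left) and BAT-Mcu-KO against control at each temperature (right). Filled points have an adjusted p under 0.05. On the left Polr1a reaches 1.08 and Myc -1.34, and on the right all points are open.

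Between genotypes no change of these genes was called. Knockout mice differ from control mice by the Ucp1-Cre transgene as well as by the loss of Mcu, and these cannot be told apart. At RT 0 of the 10 were called between genotypes, where 0.0478% of all genes were, and at 4°C 0 of 10, where 0.0751% were. The difference between genotypes in the cold response was called for 0 of 10, and for 0.0% of all genes. By limma at an unadjusted p under 0.05 there were 1, 0 and 0 members, and 754, 1023 and 878 of all genes. By edgeR and DESeq2, too, 0 members were called in each of the 3, where edgeR called 7, 6 and 0 of all genes and DESeq2 20, 23 and 28. Between genotypes the members' fitted changes were -0.33 to 0.14 at RT, and at 4°C they were -0.25 to 0.16. Each genotype comparison shares its mice with both cold comparisons.

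Nop58 had the lowest of these values at both temperatures. It was lower in knockout mice by a log2 fold change of -0.33 ± 0.12 at RT (unadjusted p = 0.0134, adjusted p = 0.94), with 5 of the 6 knockout mice below every control mouse, and by -0.25 ± 0.13 at 4°C (adjusted p = 0.735), with 3 of 6 below. For Myc the genotype change was 0.14 at RT with a 95% interval from -0.91 to 1.199, and 0.07 at 4°C with an interval from -1.04 to 1.17, so that a log2 change of 1 lies within both intervals. The difference between its cold responses was -0.08, from -1.61 to 1.45. For Polr1a that difference was -0.24, from -0.60 to 0.13 (adjusted p = 0.873). Ncl had the smallest standard errors of the 10 genes, with genotype changes of -0.08 at RT, from -0.27 to 0.10, and -0.04 at 4°C, from -0.24 to 0.15.

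Whether mice with more Myc also had more of the nucleolar mRNAs was asked within the 3 groups of 6 mice, as temperature separates the mice into clusters. Of 27 relations between Myc and another member 20 had a positive Pearson r, and the r ran from -0.669 to 0.911 with a median of 0.159. None passed the test after adjustment over the 27 (smallest adjusted p = 0.263 for r and 0.45 for rho, exact permutation tests, two-sided). The highest was with Nop56 in knockout mice at 4°C, with r = 0.911 (exact permutation p = 0.0194, adjusted p = 0.263), rho = 0.943 (exact permutation p = 0.0167, adjusted p = 0.45) and r = 0.792 without the 2 mice farthest from the median of Myc. In the same group Fbl had r = 0.883 (exact permutation p = 0.0194) and rho = 0.771 (exact permutation p = 0.103). The 5 genes that rose in the cold in both genotypes, Ncl, Npm1, Nop58, Polr1a and Nolc1, had r of 0.38, 0.159, 0.112, -0.266 and -0.325 with Myc there, and of 0.965, 0.947, 0.846, -0.0764 and -0.639 over the 4 mice left without the 2 farthest. Without the 2 farthest mice the sign changed in 10 of the 27 relations.

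Over all 23 mice, and among the 9531 genes averaging 50 normalized counts or more, the genes whose log2 level followed Myc most closely were Nipsnap3b, Gmppa, Lrrn4, Samhd1 and Dhrs3, with Pearson r of 0.792, 0.788, 0.784, 0.78 and 0.778. All 5 had lower fitted levels at 4°C in both genotypes, between -0.67 for Lrrn4 in control mice and -0.23 for Gmppa in knockout mice. For Nop56 they were Tmem128, Dohh, Jagn1, Saraf and Jrk, with r from 0.806 to 0.78. These r describe 23 mice that share 2 temperatures and the depth of their libraries.

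Among the other genes of the MYC network 13 of 15 listed were measured (not Mycn and Mxd3), and they moved both ways. In control mice 5 rose and 5 fell, and the same 10 genes did so in knockout mice, 76.9% of those measured, beside 46.0% and 43.3% of all genes. The rises were those of Mga, a large relative that pairs with MAX (1.29 ± 0.12, adjusted p = 2.82e-09), Zbtb17, which encodes the MYC partner MIZ1 (0.90 ± 0.15, adjusted p = 1.54e-05), Max (0.56), Mxd1 (0.45) and Mlx (0.36). The falls were those of the MYC paralogue gene Mycl (-1.71 ± 0.51, adjusted p = 0.00714), Mxi1 (-0.82), Mlxipl (-0.57), Mxd4 (-0.52 ± 0.10, adjusted p = 7.7e-05) and Trrap (-0.46). The list median was 0.05 in control mice and 0.17 in knockout mice. In knockout mice Mga changed by 1.2 and Mycl by -2.20. Of 12 classical MYC target genes outside the nucleolus, 6 rose and 3 fell in control mice and 5 rose and 3 fell in knockout mice, or 75% and 66.7% called beside the 46.0% and 43.3% of all genes, with list medians of 0.12 and 0.14. The falls were those of Cad, Ccnd2 and Ppat in both genotypes. The call of Ppat held in 27 of 34 alternative fits in control mice and in 20 of 34 in knockout mice. Cad, whose enzyme starts pyrimidine synthesis, fell by 1.92 ± 0.17 on the log2 scale in control mice (adjusted p = 1.26e-09) and by 1.76 in knockout mice, while the polyamine enzyme gene Odc1 rose by 0.73 ± 0.23 (adjusted p = 0.0112), the mitochondrial chaperonin gene Hspd1 by 0.57 ± 0.10 (adjusted p = 4.43e-05) and the cap-binding factor gene Eif4e by 0.41 ± 0.08 (adjusted p = 0.000243).

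The other genes of ribosome production, 133 measured of 134 listed in 6 lists (not Npm3), rose more often than not. Of them 83 rose and 7 fell in control mice, and 82 rose and 8 fell in knockout mice, with 79 called in the same direction in both and list medians of 0.44 and 0.45. The 90 called were 67.7% of those measured, beside the 46.0% and 43.3% of all genes. By genotype 0 were called at RT, 0 at 4°C and 0 for the difference of cold responses by limma, edgeR and DESeq2, with 6, 11 and 7 at an unadjusted p under 0.05 by limma.

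The factors of the large subunit moved most uniformly, 38 of 46 up and 0 down in control mice. In knockout mice 33 were up and 0 down, and the medians were 0.60 and 0.56. The calls were 82.6% and 71.7% of that list, beside 46.0% and 43.3% of all genes. Rrs1 (1.75 ± 0.25, adjusted p = 3.32e-06), Noc3l (1.59 ± 0.17, adjusted p = 4.54e-08), the rRNA methyltransferase gene Nop2 (1.39 ± 0.09, adjusted p = 1.06e-11) and Mdn1, a large ATPase that remodels pre-60S particles (1.18 ± 0.13, adjusted p = 7.73e-08), were among those that rose in control mice, Nop2, Noc3l and Mdn1 having the smallest p of the list and Rrs1 the largest fold. They changed by 1.10, 1.13, 1.25 and 0.85 in knockout mice. Of the factors of the small subunit 33 of 49 rose and 0 fell in control mice. In knockout mice 34 rose and 1 fell, and the medians were 0.47 and 0.45. So 67.3% and 71.4% of that list were called, beside the same shares of all genes. Rrp12 (1.83 ± 0.15, adjusted p = 3.18e-10), Ltv1 (1.47 ± 0.14, adjusted p = 7.03e-09) and Nop14 (0.94 ± 0.11, adjusted p = 8.89e-08) had the smallest p of the list in control mice and changed by 1.59, 1.17 and 0.79 in knockout mice. The gene that fell in knockout mice was Rrp7a (-0.32). The largest change there, 2.32 ± 0.26, was that of Utp14b, whose mean was 12.4 normalized counts at RT and 63.9 at 4°C, and which changed by 1.28 in control mice. Both were picked after their values were seen.

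The further genes of RNA polymerase I were called about as often as all genes in control mice. Of 11 further subunit genes 3 rose in control mice (Polr1c, Polr1d and Twistnb, by 0.56, 0.48 and 0.60) and 6 in knockout mice, where Polr1e, Cd3eap and Znrd1 joined them. With the falls, 45.5% and 63.6% of the list were called, beside 46.0% and 43.3% of all genes. Polr2e, shared by all 3 nuclear RNA polymerases, fell by 0.77 ± 0.09 on the log2 scale (adjusted p = 2.33e-07) and by 0.73, and Polr2f, also shared, fell by 0.50 in control mice (adjusted p = 0.00206) with a value of -0.12 in knockout mice. Of 7 initiation and termination factors Ubtf, Rrn3 and Taf1d rose in control mice, by 0.42 ± 0.10, 0.61 ± 0.10 and 0.73 ± 0.15 (adjusted p = 0.00083, 2.68e-05 and 0.000248), with Taf1c in addition in knockout mice, 42.9% and 57.1% of that list beside the same shares of all genes. Among 6 chaperone and scaffold genes the helicase gene Ddx21 (1.54 ± 0.11, adjusted p = 2.41e-11), the nucleostemin gene Gnl3 (1.48 ± 0.15, adjusted p = 2.02e-08) and Mybbp1a (0.95 ± 0.11, adjusted p = 1.05e-07) rose, and Tcof1 fell in knockout mice, by 0.37. These were 50% and 66.7% of that list, beside 46.0% and 43.3% of all genes.

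The snoRNP list was the 1 of the 6 with a median below that of all genes, -0.20 in control mice and -0.06 in knockout mice. In control mice 3 of 14 rose (Nufip1, Gar1 and Tgs1) and 5 fell (Nop10, Rpap3, Shq1, Znhit3 and Pih1d1), and in knockout mice Nufip1 and Tgs1 rose and Nop10, Rpap3, Shq1, Znhit3 and Ruvbl2 fell, so that 57.1% and 50% were called beside 46.0% and 43.3% of all genes. Nop10, the dyskerin partner, changed by -0.57 ± 0.11 in control mice (adjusted p = 0.00011) and -0.38 in knockout mice. Shq1, a chaperone of dyskerin, changed by -0.87 and -0.85. Rpap3, of the R2TP complex that assembles snoRNPs, changed by -1.19 ± 0.25 (adjusted p = 0.000285) and -0.61, and Nufip1, an assembly factor of box C/D particles, by 0.85 ± 0.20 (adjusted p = 0.000808) and 0.56. Of the other H/ACA genes of the list Gar1 had 0.74 (adjusted p = 0.0484) and 0.59 (adjusted p = 0.102), Nhp2 -0.13 and -0.07, and Naf1 0.57 and -0.01, with neither Nhp2 nor Naf1 called in either genotype. The call of Gar1 in control mice held in 10 of 32 alternative fits.

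**Figure D4:**
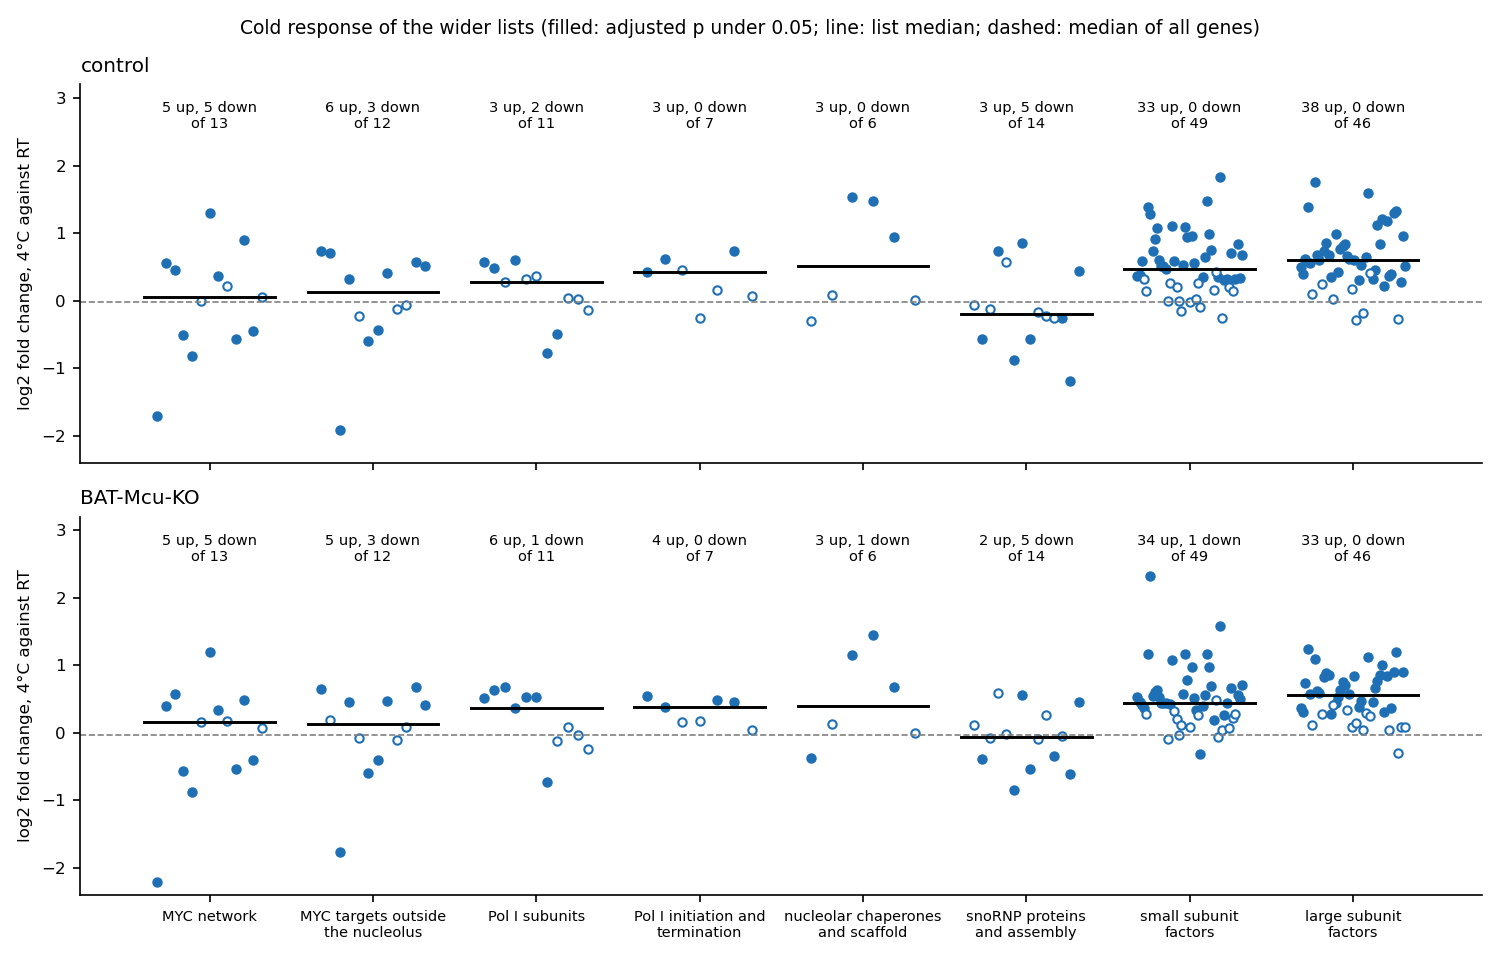
Log2 fold change between 4°C and RT (vertical axis) of each gene of 8 lists in control mice (top) and knockout mice (bottom), filled where the adjusted p was under 0.05. A line marks the list median and a dashed line the median of all genes. The factors of the small and large subunit lie mostly above the dashed line, with medians of 0.47 and 0.60 in control mice, and the snoRNP list has its median below it.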

How the data were processed

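RNA of BAT was sequenced as Smart-seq2 libraries with paired 25-base reads. Per the methods, the authors aligned reads to mm10 (GENCODE annotation) with STAR 2.4.0j, counted uniquely mapped reads in exons with HTSeq irrespective of strand, and left out genes that did not reach 8 reads in 6 libraries. The deposited signal is the count of reads per gene divided by the DESeq2 size factor of the library, so differences in depth remain as differences in precision. A further table holds the authors' own fold changes and p-values and was not used.

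The values were whole multiples of 1 read within 0.1 in 100.0% of cases, and the reads were recovered. Since the unit is not a raw count, the main test was limma 3.58.1 (R 4.3.3) with a variance trend on log2(normalized count + 1). The added 1 by itself shrinks the changes of low genes. For Myc, however, the limma changes of -1.26 in control and -1.34 in knockout mice were larger than those on recovered reads. These were -0.79 and -1.08 by edgeR and -0.74 and -1.10 by DESeq2. It had 4 group means over all 23 libraries, and Benjamini-Hochberg adjustment over 14651 genes. Values after ± in fold changes are standard errors. Alternatives were edgeR 4.0.16 and DESeq2 1.42.0 on recovered reads (6780 and 6875 genes called for cold in control mice, 6501 and 6618 in BAT-Mcu-KO mice, beside 6735 and 6349 by limma), other pseudocounts, filters, scalings and designs, and leaving out each mouse. The test was checked on simulated data with far fewer changed genes than were called for cold here. That check does not cover changes as widespread as these.

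The 10 genes and all lists were chosen with earlier results of these data known. From each list the 3 genes with the smallest p for cold in control mice, the largest rise and fall among those called and any gene called by genotype were named, and others only to complete counts of 5 or fewer or where said, after their values were seen. Myc relations used exact permutation tests (Python 3.11.15, scipy 1.17.1). Coordinates, transcripts and overlaps came from GENCODE M21 on GRCm38, the build of mm10, and promoters from RefSeq.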

Additional observations from a re-analysis of the deposited data

Results flagged for a closer look

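In 1 of the 40 sets of values (10 genes in 4 groups) a mouse stood apart by Dixon's test at 95%, where chance gives about 2.0. Fbl in the first BAT-Mcu-KO mouse at RT had a normalized count of 32.8, with the next at 14.8 and the lowest at 6.03. The gap was 0.672 of the range.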

How the results depend on the processing

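The number of members called in the cold was between 6 and 7 in control mice and between 7 and 8 in BAT-Mcu-KO mice in every alternative fit, and that of the wider lists between 78 and 90 and between 78 and 93. No member and no gene of the wider lists was called by genotype or for the difference of cold responses in any of them. Of 674 refitted cold changes of members, 649 kept direction and side of the threshold, 11 lost the call and 5 gained it, all of them values of Myc, and 9 turned sign, all of Polr1b. Polr1b in control mice was 0.038 by edgeR and 0.042 by DESeq2, and -0.15 to 0.17 with a mouse left out. In BAT-Mcu-KO mice it was -0.0049 to 0.15 with a mouse left out. Myc by genotype at 4°C was -0.023 with a pseudocount of 10, -0.27 by edgeR and -0.33 by DESeq2. With a mouse left out it was -0.50 to 0.57, at RT -0.12 to 0.34, and its difference of cold responses -0.65 to 0.43. The cause was not tested. The median r between Myc and the other members was -0.06 without the 2 farthest mice. Groups share replicate numbers, but same-numbered mice did not deviate together (33 pairs, r from -0.386 to 0.264, 4 over 0.1). With the replicate number as a block 6 and 8 members were called, and 87 and 88 genes of the wider lists. Few reads limit what can be said of Fbl, with as few as 2, and of Myc, with as few as 5 in a control mouse at 4°C.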
